A study of Mus musculus with 2 samples.

Results

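Interferon-active general capillary endothelial cells were chosen by their own counts, as the lung capillary cells in which at least 4 of 5 interferon-stimulated genes (Ifit1, Ifit3, Ifit3b, Rsad2 and Isg15) each had 1 or more UMI (unique molecular identifier, a counted transcript). They numbered 189, of 2475 general capillary cells and 8297 cells that passed the filter: 165 of the 2157 general capillary cells of the donor library and 24 of the 318 of the recipient library. General capillary cells were those with at least 3 UMIs each of Gpihbp1 (the capillary anchor of lipoprotein lipase) and Plvap (a protein of the diaphragms of fenestrae and caveolae), at most 2 UMIs of Ednrb (a marker of the other lung capillary type, the aerocytes), and none of Gja5 (arterial) or Slc6a2. Both libraries came from C57Bl mice that had been given a suspension of tdTomato-labelled lung cells 6 months earlier. The lungs of 3 chimeric mice were pooled and sorted into live CD45- tdTomato+ cells, which made the donor library, and live CD45- tdTomato- cells, which made the recipient library. Each group was therefore 1 library from 1 pool, and the strain of the donor cells, the age and sex of the mice and the treatment of recipients before transplantation were not given in the sources used here. No reporter gene is among the genes of the matrices, so donor and recipient origin rest on the sort. With 1 library a group there was no test, cells of a library are not replicates, and every interval given is a 95% interval that covers counting error only.

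The libraries held 6319 donor and 3784 recipient barcodes, and 4945 and 3352 were left with at least 1000 UMIs, under 7% mitochondrial UMIs and no deeper copy of the same barcode in the other library. Of 816 barcodes present in both libraries the shallower copy was dropped, and 1 interferon-active cell in each library carried such a barcode. Median depth of the kept cells was 6196 UMIs in donor and 6408.5 UMIs in recipient cells. The mitochondrial share of interferon-active cells had a median of 2.92% in each library, beside 3.01% in other donor and 2.91% in other recipient general capillary cells.

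General capillary cells form most of the capillary bed of the alveolus and act as its progenitor cells, whereas aerocytes are the thin, large cells specialised for gas exchange. Type I interferons bind the receptor Ifnar1-Ifnar2, whose kinases Jak1 and Tyk2 activate transcription factors, Stat2 with Irf9 among them, that bind interferon-stimulated response elements and switch on many genes against viruses. Interferon-gamma has a receptor of its own and switches on an overlapping set that includes the guanylate-binding proteins and MHC molecules. The 5 genes that chose the cells belong to the type I response: Ifit1, Ifit3 and Ifit3b are tetratricopeptide proteins of which Ifit1 binds foreign RNA caps, Rsad2 (viperin) makes a nucleotide that stops viral polymerases, and Isg15 is a ubiquitin-like modifier.

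The bases upstream of the 5 chosen genes are shown because each holds the core of the response element. The motif searched was GAAA, any 2 bases and GAAA again, or its reverse complement (TTTC, any 2 bases and TTTC), and matches that overlap were each counted. The sequences are RefSeq's (GRCm38.p6), cover the 250 bases before the start of each gene 5′ to 3′ on the gene's own strand, and carry the matched bases in capitals. They lie at chr19:34640639-34640888 (plus strand) for Ifit1, chr19:34583279-34583528 (plus) for Ifit3, chr19:34607707-34607956 (plus) for Ifit3b, chr12:26456453-26456702 (minus) for Rsad2 and chr4:156200819-156201068 (minus) for Isg15. Oas1a, chr5:120907526-120907775 (minus), and Ddx60, chr8:61927837-61928086 (plus), are genes of the response that took no part in choosing the cells and also hold the motif.
Ifit1: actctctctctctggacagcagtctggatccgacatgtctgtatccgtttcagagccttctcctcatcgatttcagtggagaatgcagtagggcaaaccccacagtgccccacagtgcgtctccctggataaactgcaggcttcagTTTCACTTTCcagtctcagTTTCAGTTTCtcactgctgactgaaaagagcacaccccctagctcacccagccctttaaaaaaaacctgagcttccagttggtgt
Ifit3: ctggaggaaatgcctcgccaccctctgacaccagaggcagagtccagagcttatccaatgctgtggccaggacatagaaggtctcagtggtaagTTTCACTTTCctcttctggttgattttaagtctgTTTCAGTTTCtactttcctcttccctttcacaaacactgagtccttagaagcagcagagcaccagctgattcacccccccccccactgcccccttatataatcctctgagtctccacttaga
Ifit3b: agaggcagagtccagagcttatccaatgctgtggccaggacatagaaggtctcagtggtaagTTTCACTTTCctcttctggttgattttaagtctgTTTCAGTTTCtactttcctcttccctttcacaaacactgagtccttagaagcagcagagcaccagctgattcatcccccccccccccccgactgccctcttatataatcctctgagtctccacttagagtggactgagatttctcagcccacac
Rsad2: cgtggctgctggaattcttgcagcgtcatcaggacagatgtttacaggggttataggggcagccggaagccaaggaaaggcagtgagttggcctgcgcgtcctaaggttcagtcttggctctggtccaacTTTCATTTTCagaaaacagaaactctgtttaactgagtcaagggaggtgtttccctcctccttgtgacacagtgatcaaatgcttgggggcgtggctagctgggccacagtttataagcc
Isg15: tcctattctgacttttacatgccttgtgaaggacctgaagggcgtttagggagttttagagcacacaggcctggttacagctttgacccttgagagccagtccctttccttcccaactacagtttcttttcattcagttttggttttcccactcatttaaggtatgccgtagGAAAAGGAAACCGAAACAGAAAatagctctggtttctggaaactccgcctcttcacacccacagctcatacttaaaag
Oas1a: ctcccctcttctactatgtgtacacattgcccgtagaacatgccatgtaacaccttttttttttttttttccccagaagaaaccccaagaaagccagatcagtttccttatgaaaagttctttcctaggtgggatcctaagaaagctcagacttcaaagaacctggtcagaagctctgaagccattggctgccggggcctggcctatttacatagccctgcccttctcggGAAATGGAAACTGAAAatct
Ddx60: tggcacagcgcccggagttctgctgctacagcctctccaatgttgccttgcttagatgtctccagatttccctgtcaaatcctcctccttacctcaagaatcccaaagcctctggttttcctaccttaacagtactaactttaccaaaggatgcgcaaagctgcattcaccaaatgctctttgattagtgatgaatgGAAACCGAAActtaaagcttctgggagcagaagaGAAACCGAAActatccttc
The motif stood in 5 of the 5 promoters, against 936 of 27025 genes (3.46%) over all RefSeq promoters of the same length. Ifit1, Ifit3 and Ifit3b had 2 matches each, Isg15 had 3 that overlap, and Rsad2 had 1, whose first base lay 120 bases before the start. A longer form, AGTTTC, any 2 bases and TTTC on either strand, overlaps the same matches and stood in 3 of the 5 (Ifit1, Ifit3 and Ifit3b) and in 0.255% of all genes. TTC, any 3 bases and GAA, the element of many interferon-gamma-responsive genes, stood in 0 of the 5 and in 8.13% of all genes. These are matches of letters in a window and not measured binding. Ifit3 and Ifit3b share a run of 169 identical upstream bases that holds both of their matches, and their longest transcripts are 98.0% identical over 1697 aligned bases, so reads of this pair may have been split or lost between them and their separate levels are uncertain.

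The share of general capillary cells that were interferon-active overlapped between the libraries within counting error. It was 7.65% (6.56 to 8.85) in donor cells and 7.55% (4.90 to 11.02) in recipient cells. Interferon-active cells held 40.6% of the 5 genes' UMIs in donor general capillary cells and 45.0% in recipient ones, beside 9.11% of all UMIs in donor and 8.40% in recipient ones. The rule chose the cells by those UMIs, so a larger share of them was built in. Of the UMIs of the other listed type I genes, which the rule did not use, they held 12.3% in donor and 11.2% in recipient ones. The rule needs detection of lowly counted transcripts, so the share moves with depth: interferon-active cells had a median of 6106 UMIs, against 5311.5 in other general capillary cells of the donor library, and 6109 against 5472.5 in recipient cells. With every cell thinned to 3000 UMIs and markers counted again, 3.67% of donor and 4.00% of recipient general capillary cells met the marker rule, with 86 donor and 18 recipient cells too shallow to be thinned.

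Other cells of the lung met the same marker rule less often in some classes and as often in others. At 3000 UMIs the share was 0.847% of Ednrb-high (aerocyte marker) cells, 3.34% of Gja5- or Slc6a2-positive endothelial cells and 5.0% of cells without Cdh5 or Pecam1 in the donor library. In the recipient library it was 0.483% of Ednrb-high cells, 1.01% of Gja5- or Slc6a2-positive endothelial cells and 0.471% of cells without Cdh5 or Pecam1. Unthinned, Ednrb-high cells reached 4.48% (64 of 1430) in the donor library and 2.52% (16 of 635) in recipient cells, at median depths of 8855 and 7915 UMIs. The donor value of the cells without Cdh5 or Pecam1 rested on 3 of 60 cells deep enough to thin (1.04 to 13.9), and the donor share of general capillary cells did not exceed it. Rsad2 had a UMI in 8.16% of general capillary cells, 4.69% of Ednrb-high cells and 3.28% of cells without Cdh5 or Pecam1 in the donor library, at median depths of 5353, 8855 and 2819 UMIs. In the recipient library the shares were 5.97%, 4.41% and 0.658%, at median depths of 5542, 7915 and 6104.5 UMIs.

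**Figure D1:**
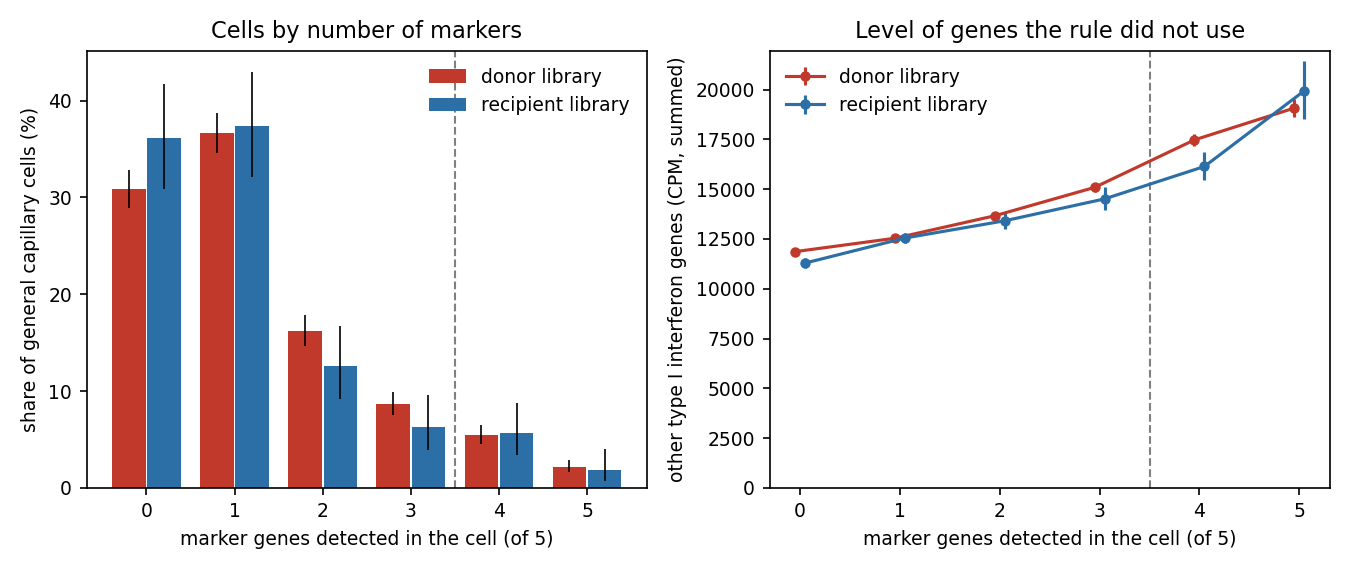
Left, the share of general capillary cells (%) by how many of the 5 marker genes were detected, with exact 95% binomial intervals; right, the summed level (CPM) of the other type I genes, which the rule did not use, with exact Poisson intervals, for the donor (red) and recipient (blue) libraries. The dashed line is the threshold of the rule; the level stood higher at each further marker, with 11864 CPM at 0 markers, 15090 CPM at 3, 17477 CPM at 4 and 19077 CPM at 5 in the donor library, where the widest step lay at the line.

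The chosen cells lay at the upper end of a graded range. Among donor general capillary cells, 666 had no marker, 790 had 1, 349 had 2, 187 had 3, 118 had 4 and 47 had 5. Among recipient ones the numbers were 115, 119, 40, 20, 18 and 6. Just inside the threshold, the donor cells with 4 markers had 17477 CPM of the other type I genes and those with 3, just outside it, had 15090 CPM. The same values were 16142 CPM with 4 markers and 14513 CPM with 3 in recipient cells, where those with 4 and with 5 markers numbered under 20. Rsad2 was the gene most often missing from cells with 4 markers, in 83 of 118 donor and 14 of 18 recipient cells, and Ifit3b came next in the donor library with 25.

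The level of the chosen genes is a description, since they chose the cells. Ifit1 stood at 616 CPM (the gene's summed UMIs scaled to a common total of the group) in interferon-active cells and 66.7 CPM in other donor cells, and at 556 CPM in interferon-active and 42.0 CPM in other recipient cells. Ifit3 stood at 608 CPM in interferon-active against 49.3 CPM in other donor cells and 711 CPM in interferon-active against 44.2 CPM in other recipient cells. Isg15, which had a UMI in 54.7% of the other donor and 51.4% of the other recipient cells, stood at 1131 CPM in interferon-active against 265 CPM in other donor cells and 1150 CPM in interferon-active against 224 CPM in other recipient cells. Ifit3b stood at 287 CPM in interferon-active against 17.3 CPM in other donor cells and 303 CPM in interferon-active against 13.0 CPM in other recipient cells, and Rsad2 at 156 CPM in interferon-active against 11.4 CPM in other donor cells and 210 CPM in interferon-active against 5.67 CPM in other recipient cells.

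Cells differed widely in how strongly they carried the 5 genes. Their summed UMIs per interferon-active cell ran over 4 to 214 with a median of 17 in the donor library, and over 5 to 58 with a median of 20 in recipient cells, whereas the median of other cells was 1 in each. The donor cell with 214 such UMIs, which were 3.10% of its 6901 UMIs, held 59 of the 176 Rsad2 UMIs of all interferon-active donor cells, and the next cell had 73 marker UMIs. Of donor cells outside the group, 13 reached the median of 17 with no more than 3 of the genes detected.

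Genes of the type I response that took no part in choosing the cells were higher in the same cells. Of 59 listed genes 56 were in the matrices, and 49 had the 20 UMIs needed over both groups in donor cells and 46 in recipient cells. Their median log2 ratio of interferon-active over other general capillary cells was 0.93 in the donor library and 1.0 in recipient cells, beside −0.03 in donor and −0.06 in recipient cells over all genes measured. A gene was counted as higher or lower when it was at least 2-fold apart with a counting interval that left out 1-fold, and 24 of the 49 were higher in donor cells and 21 of the 46 in recipient cells. Over all genes measured 1.44% were counted as higher in the donor library and 2.53% in recipient cells. The share counted as lower was 0.895% of all donor and 1.44% of all recipient genes. No listed gene was among these in donor cells and 1 was in recipient cells, Ifitm1, with 2 UMIs in interferon-active cells (0.218-fold, 0.0260 to 0.808). The list sums to 17963 CPM in interferon-active and 12822 CPM in other donor cells, and to 17015 CPM in interferon-active and 12435 CPM in other recipient cells, so most of it was also present in cells outside the group.

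Enzymes on the list differed in degree, with Adar, the RNA-editing deaminase, at 1.62-fold and Isg20, an exonuclease, at 1.60-fold in donor cells, neither counted as higher. Oasl2, an oligoadenylate synthetase-like protein, stood at 329 CPM in interferon-active and 106 CPM in other donor cells, and at 309 CPM in interferon-active against 85.6 CPM in other recipient cells. Oas1a, which makes the second messenger of RNase L, stood at 57.6 CPM in interferon-active against 17.0 CPM in other donor cells and 61.8 CPM in interferon-active against 19.3 CPM in other recipient cells. Cmpk2, a mitochondrial nucleotide kinase whose gene neighbours Rsad2, stood at 85.1 CPM in interferon-active against 24.9 CPM in other donor cells and 86.5 CPM in interferon-active against 18.1 CPM in other recipient cells. Eif2ak2 (PKR), which stops translation when it binds double-stranded RNA, was 2.49-fold higher in donor and 3.01-fold higher in recipient cells. Oas2 was 2.36-fold higher in the donor library, and its recipient ratio of 2.01 rested on 7 UMIs with an interval of 0.757 to 4.55.

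Factors and brakes of the pathway had the largest ratios among the named genes. Usp18, which removes Isg15 from proteins and blocks the receptor, was at 155 CPM in interferon-active against 30.8 CPM in other donor cells (5.05-fold, 4.18 to 6.07) and at 198 CPM in interferon-active against 25.5 CPM in other recipient cells (7.75-fold, 4.77 to 12.5). Irf7, the factor that amplifies type I interferon production, was at 206 CPM in interferon-active against 40.8 CPM in other donor cells (5.04-fold, 4.29 to 5.92) and 222 CPM in interferon-active against 35.7 CPM in other recipient cells (6.23-fold, 4.02 to 9.53). Usp18 had a UMI in 54.5% and Irf7 in 67.9% of interferon-active donor cells, against 14.4% and 17.5% of the other donor cells. Stat2 was 2.09-fold higher in donor and 2.31-fold higher in recipient cells, and Irf9 1.81-fold in donor and 1.94-fold in recipient cells. Irf1, Irf2, Irf3 and Stat3 lay between −0.69 and 0.26 on the log2 scale over both libraries.

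**Figure D2:**
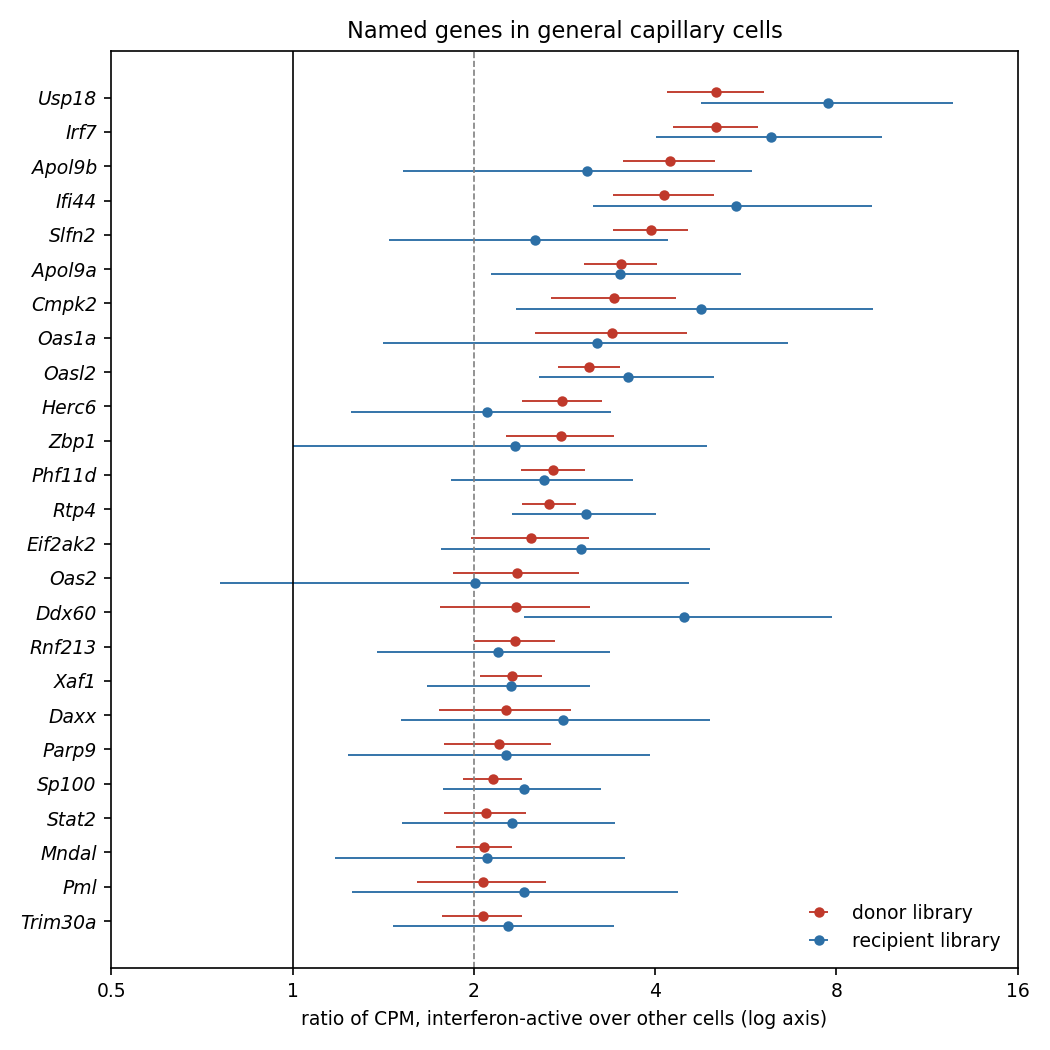
Ratio of CPM in interferon-active over other general capillary cells for the 25 named genes in the donor (red) and recipient (blue) libraries, on a log axis, with exact counting intervals; the solid line is 1 and the dashed line the 2-fold limit. Usp18 and Irf7 stand highest in the donor library, and recipient intervals are wider because that library had 24 such cells.

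The 25 genes named by rule were at least 2-fold higher in both libraries, and 17 of them were on the list of other type I genes. Those outside it included Slfn2, a schlafen protein that maintains quiescence in T cells, at 238 CPM in interferon-active and 60.3 CPM in other donor cells, and at 117 CPM in interferon-active against 46.5 CPM in other recipient cells. The apolipoproteins Apol9a and Apol9b were 3.51-fold and 4.23-fold higher in the donor library and 3.49-fold and 3.08-fold higher in recipient cells, and as close copies of each other their separate counts are uncertain. Rnf213, a giant ubiquitin ligase linked in people to the artery disease moyamoya, was 2.34-fold higher in donor and 2.20-fold higher in recipient cells. Ddx60, a helicase that aids RNA sensing, was 2.35-fold higher in donor and 4.46-fold higher in recipient cells.

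The remaining named genes are antiviral effectors and signalling proteins. Ifi44, an interferon-induced protein, stood at 137 CPM in interferon-active and 33.2 CPM in other donor cells, and at 142 CPM in interferon-active against 26.1 CPM in other recipient cells. Rtp4, a receptor transporter protein, had a UMI in 92.1% of interferon-active and 49.4% of other donor cells and was 2.67-fold higher there and 3.06-fold higher in recipient cells. Herc6, the ligase that attaches Isg15 in mice, was 2.80-fold higher in donor and 2.10-fold higher in recipient cells. Zbp1, a sensor of Z-form nucleic acids that can start necroptosis, was 2.79-fold higher in the donor library, and its recipient ratio of 2.34 rested on 9 UMIs. Phf11d, Xaf1, Daxx, Parp9, Sp100, Pml and Trim30a were 2.07-fold to 2.71-fold higher in the donor library and 2.27-fold to 2.81-fold higher in recipient cells. Of these, Sp100, Pml and Daxx are parts of PML nuclear bodies. Ifitm3, which blocks viral entry and was named for its high level, stood at 4826 CPM in interferon-active against 3789 CPM in other donor cells and 5192 CPM in interferon-active against 3979 CPM in other recipient cells, and Ly6e at 3543 CPM in interferon-active against 2820 CPM in other donor cells and 3072 CPM in interferon-active against 2831 CPM in other recipient cells.

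Of the 25 named genes 20 were found in the promoter table, and 7 of these (35%) held the GAAA motif printed in capitals above: Apol9a, Apol9b, Oas1a, Ddx60, Stat2, Mndal and Trim30a. The motif stood in 12 of 45 promoters (26.7%) of the other type I genes, in 9 of 10 of the GBP and IRG genes and in 7 of 10 of the PYHIN genes, beside the 3.46% of all genes. It stood in 0 of 8 promoters of RNA and DNA sensors and 0 of 8 of interferon receptors and kinases. Among genes that mark states within general capillary cells it stood in 2 of 7 (28.6%). TTC, any 3 bases and GAA stood in 5 of 45 (11.1%) of the other type I, 6 of 10 of the GBP and IRG and 1 of 10 of the PYHIN genes, beside 8.13% of all genes.

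**Figure D3:**
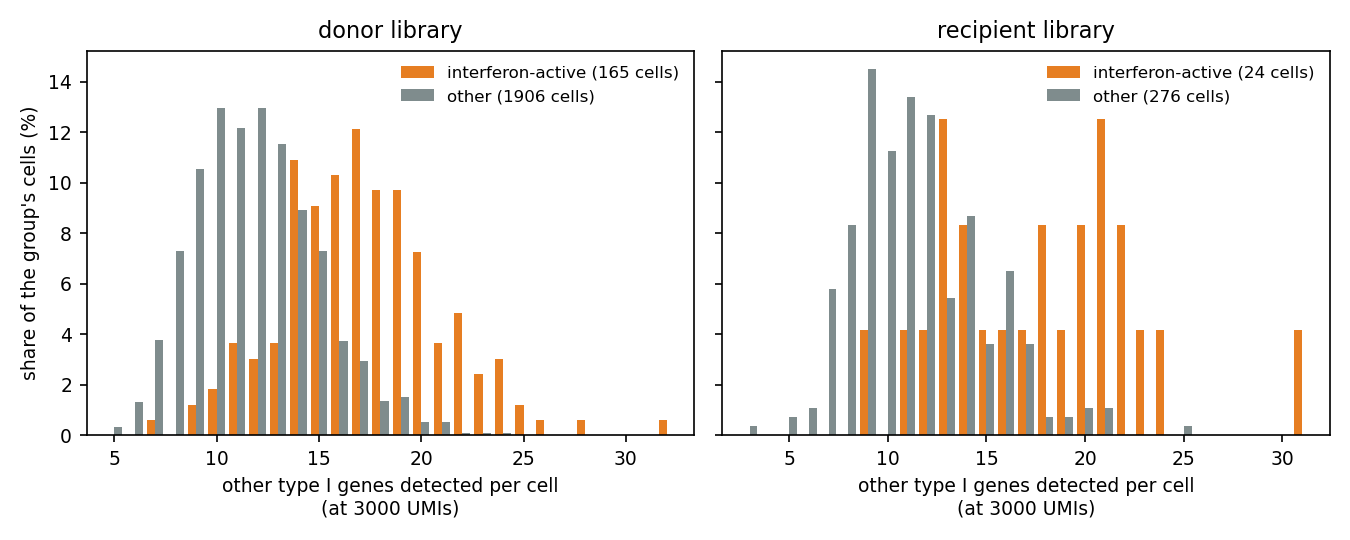
Number of other type I genes detected per cell after thinning to 3000 UMIs, as a share (%) of interferon-active (orange) and other (grey) general capillary cells, in the donor library (left) and the recipient library (right). The groups overlap: the medians are 17 genes in interferon-active and 12 in other donor cells, and 18 genes in interferon-active and 11 in other recipient cells.

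Cell by cell, the difference was a shift with overlap. At 3000 UMIs per cell the number of other type I genes detected ran over 7 to 32 with a median of 17 in interferon-active cells of the donor library, and over 5 to 24 with a median of 12 in other cells. In the recipient library it ran over 9 to 31 with a median of 18, against 3 to 25 with a median of 11. Of the other donor cells 137 (7.19%) were at or above the median of interferon-active cells, and 11 (3.99%) of the other recipient cells. Thinned cells of the 2 groups had nearly the same number of genes in all, with medians of 1581 in interferon-active and 1579 in other donor cells, and 1570.5 in interferon-active and 1574.5 in other recipient cells.

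Some sensors of foreign nucleic acid were higher in interferon-active cells, whereas 2 proteins that relay their signal were close to level in the donor library. Of 9 listed genes measured in the donor library 2 were counted as higher, Zbp1 and Dhx58, beside 1.44% of all genes. Of 8 in recipient cells 2 were, Ddx58 and Ifih1, beside 2.53% of all genes. Tlr3 was 1.44-fold higher in donor cells and stood at 0.971-fold in recipient cells. Ddx58 (RIG-I) stood at 99.3 CPM in interferon-active against 55.9 CPM in other donor cells and 142 CPM in interferon-active against 49.9 CPM in other recipient cells. Ifih1 (MDA5) stood at 78.0 CPM in interferon-active against 44.2 CPM in other donor cells and 117 CPM in interferon-active against 23.3 CPM in other recipient cells. Mavs and Tbk1, which carry the signal of these sensors, lay between −0.13 and 0.08 on the log2 scale in both libraries. Their recipient ratios rested on 3 UMIs of Mavs (interval 0.206 to 3.38) and 9 of Tbk1 (0.428 to 1.90).

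Most genes that receive interferon did not stand apart. Of the 8 measured receptor and kinase genes 0 were counted as higher or lower in either library, with median log2 ratios of 0.07 in donor and −0.02 in recipient cells. Ifnar2 stood at 420 CPM in interferon-active against 267 CPM in other recipient cells (1.57-fold, 1.20 to 2.03). In the donor library Ifnar2 stood at 310 CPM in interferon-active against 311 CPM in other cells. Ifnar1 stood at 74.5 CPM in interferon-active against 68.8 CPM in other donor cells and 68.0 CPM in interferon-active against 66.9 CPM in other recipient cells, and Jak1 at 209 CPM in interferon-active against 231 CPM in other donor cells and 192 CPM in interferon-active against 253 CPM in other recipient cells. Transcripts of 10 interferon genes were not seen in interferon-active cells of either library, except 1 UMI of Ifnk (interferon-kappa) in the donor library. A floor of 3 counts stands for 2.66 CPM in donor and 18.5 CPM in recipient cells, and the exact upper limit of a count of 0 is 3.27 CPM in donor and 22.8 CPM in recipient cells. Of the feedback genes other than Usp18, Socs3 stood at 2272 CPM in interferon-active against 2077 CPM in other donor cells and 2503 CPM in interferon-active against 2303 CPM in other recipient cells, and Socs1 at 79.8 CPM in interferon-active against 62.0 CPM in other donor cells and 74.2 CPM in interferon-active against 43.1 CPM in other recipient cells.

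**Figure D4:**
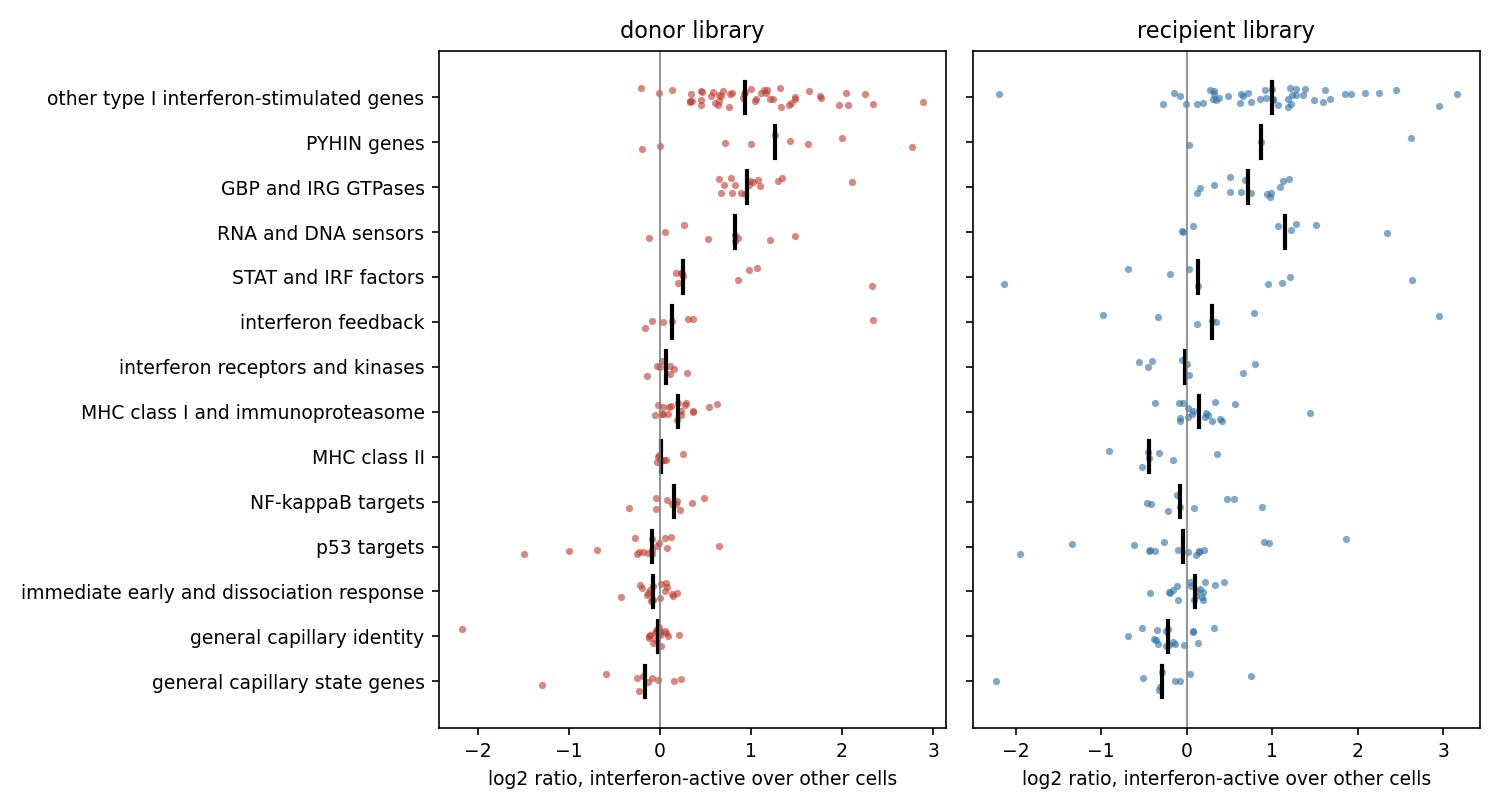
Log2 ratio of CPM in interferon-active over other general capillary cells for each measured gene (points) of 14 gene lists in the donor library (left) and the recipient library (right); bars are list medians. The medians of the type I, PYHIN, GBP and IRG and sensor lists lie above 0, and those of the receptor, immediate early and capillary identity lists lie closer to 0.

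Genes that interferon-gamma also induces were higher to different degrees in interferon-active cells. All 16 measured GBP and IRG GTPases, which attack the vacuoles of microbes inside cells, had a ratio above 1 in the donor library, and 6 were counted as higher. In the recipient library 14 of 14 had a ratio above 1 and 3 were counted as higher. Over all genes measured, 45.7% of donor and 45.4% of recipient genes had a ratio above 1, and 1.44% and 2.53% were counted as higher. Gbp6 stood at 184 CPM in interferon-active against 42.5 CPM in other donor cells (4.32-fold, 3.65 to 5.10) and 55.6 CPM in interferon-active against 28.3 CPM in other recipient cells (1.96-fold, 0.848 to 4.03). Iigp1 stood at 1966 CPM in interferon-active against 999 CPM in other donor cells and 1829 CPM in interferon-active against 858 CPM in other recipient cells. Several of these genes are close copies of each other, such as Tgtp1 and Tgtp2, and their separate counts are uncertain.

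Genes of antigen presentation differed by less than 2-fold or within wide counting intervals. Of 18 genes of MHC class I and the immunoproteasome 0 were counted as higher or lower in either library, with median log2 ratios of 0.19 in donor and 0.15 in recipient cells. Their ratio was above 1 for 16 of 18 genes in donor and 13 of 18 in recipient cells, beside 45.7% of all donor and 45.4% of all recipient genes. B2m, the light chain of class I molecules, stood at 4010 CPM in interferon-active against 3760 CPM in other donor cells and 3609 CPM in interferon-active against 3821 CPM in other recipient cells. The largest donor ratio was that of the peptide transporter Tap1, at 283 CPM in interferon-active against 183 CPM in other donor cells, and Tap1 stood at 253 CPM in interferon-active against 201 CPM in other recipient cells. Of 7 MHC class II genes 0 were counted either way, and Cd74, the invariant chain, stood at 3086 CPM in interferon-active against 3152 CPM in other donor cells and 1545 CPM in interferon-active against 1728 CPM in other recipient cells.

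General capillary identity genes were close to level between interferon-active and other cells. Of 18 identity genes measured in donor cells and 17 in recipient cells 0 were counted as higher or lower, with medians of −0.02 in donor and −0.22 in recipient cells on the log2 scale. Kit, the stem cell factor receptor, stood at 343 CPM in interferon-active against 322 CPM in other donor cells and 309 CPM in interferon-active against 283 CPM in other recipient cells, and Cd93 at 1677 CPM in interferon-active against 1610 CPM in other donor cells and 1131 CPM in interferon-active against 1438 CPM in other recipient cells. Glp1r, a general capillary marker, had a UMI in 86.7% of interferon-active and 81.4% of other donor cells and in 91.7% against 89.5% of recipient cells. Immediate early and dissociation-response genes gave 0 of 18 either way in both libraries, with Fos at 2414 CPM in interferon-active against 2390 CPM in other donor cells and 3183 CPM in interferon-active against 2531 CPM in other recipient cells. NF-kappaB targets gave 0 of 10 in donor cells and 0 of 9 in recipient cells. Of 17 p53 targets 0 were counted in the donor library, and of 16 in recipient cells Ccng1 was higher and Bbc3 lower, on 7 and 6 UMIs. The proliferation gene Mki67 had 1 UMI in the interferon-active cells of each library.

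Among genes that mark states within general capillary cells, Esm1, a proteoglycan of angiogenic tip cells, stood at 53.2 CPM in interferon-active against 131 CPM in other donor cells, and stood at 167 CPM in interferon-active against 99.2 CPM in other recipient cells, where 1 cell held 23 of the 27 UMIs. It had a UMI in 16.4% of interferon-active and 18.7% of other donor cells, and at 3000 UMIs per cell in 9.09% of interferon-active and 14.4% of other donor cells. Edn1, the vasoconstrictor endothelin-1, stood at 425 CPM in interferon-active against 638 CPM in other donor cells and 575 CPM in interferon-active against 721 CPM in other recipient cells. The only gene named as lower by rule was Depp1, a target of FOXO factors, at 25.7 CPM in interferon-active against 53.6 CPM in other donor cells (0.480-fold, 0.319 to 0.696) and with 2 UMIs in interferon-active recipient cells (0.325-fold, 0.0386 to 1.22). Of the chemokines, Cxcl10, which attracts T cells, stood at 79.8 CPM in interferon-active against 32.7 CPM in other donor cells and 130 CPM in interferon-active against 33.5 CPM in other recipient cells, with 40 of its 90 donor UMIs in 1 cell and 17 of 21 recipient UMIs in 1 cell. Cxcl9 had 2 UMIs in the donor cells and 0 in the recipient cells.

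Most leukocyte markers had no UMI in interferon-active cells or in other recipient cells, and part of the epithelial and platelet signal came from single cells. Of 15 leukocyte markers 10 were at 0 in interferon-active donor cells, beside 6 in the more numerous other donor cells. In recipient cells 12 were at 0 in interferon-active cells, beside 11 in other cells. Ptprc (CD45), C1qa, Itgam, Cd3e and Ms4a1 were among those at 0 in interferon-active cells. Of 2 markers measured in each library, 2 were counted as lower in donor cells and 1 as higher in recipient cells. The list summed to 37.2 CPM in interferon-active against 135 CPM in other donor cells. In the recipient library it summed to 192 CPM in interferon-active against 60.7 CPM in other cells. Epithelial markers summed to 1103 CPM in interferon-active against 949 CPM in other donor cells and 2540 CPM in interferon-active against 815 CPM in other recipient cells. Of 9 measured in donor cells 1 was counted as higher and 3 as lower. Of 4 measured in recipient cells 3 were counted as higher, beside 2.53% of all genes. One interferon-active cell in each library carried most of the alveolar type 1 marker Ager, with 322 of 376 UMIs in donor and 170 of 180 in recipient cells. Without the 3 interferon-active cells that had 10 or more Ager UMIs, a setting chosen after seeing the data, the median of the other type I genes was 0.95 in donor and 1.0 in recipient cells. Red cell and platelet markers summed to 154 CPM in interferon-active against 69.1 CPM in other donor cells. In the recipient library they summed to 389 CPM in interferon-active against 144 CPM in other cells. Of 4 measured in donor cells 3 were counted as higher, and of 2 in recipient cells 1 was, beside 1.44% and 2.53% of all genes. Of the platelet genes, Pf4 had 90 of its 99 donor UMIs and Ppbp all 60 in 1 cell. Of 10 measured aerocyte markers 1, Apln, was counted as lower in interferon-active donor cells, and the median log2 ratio was −0.05. Of 6 measured in recipient cells Emp2 was counted as higher and Car4 as lower, on 70 and 1 UMIs, with a median of −0.62. Of those Emp2 UMIs, over 20% were in 1 cell. Mesenchymal markers summed to 88.7 CPM in interferon-active against 44.2 CPM in other donor cells and 117 CPM in interferon-active against 279.5 CPM in other recipient cells. The part of the leukocyte, platelet and mesenchymal transcripts in the other results was not tested.

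Set side by side, most listed type I genes stood at similar levels in interferon-active cells of the donor and recipient libraries. The median log2 ratio of donor over recipient over the other type I genes was 0.07, beside 0.10 in other general capillary cells and 0.07 over all genes measured. None of 46 such genes was counted as higher in the donor library, where 2.3% of all genes were, and 3 were counted as lower, where 2.83% were: Ifi27l2a, Ifit2 and Ube2l6. In recipient interferon-active cells, 1 cell held 24.2% of the 33 UMIs of Ifi27l2a, 24% of the 25 of Ube2l6 and 4 of the 9 of Ifit2. Ifi27l2a was also counted as lower in other general capillary cells (0.355-fold, 0.277 to 0.457), whereas Ifit2 and Ube2l6 were not. Usp18 stood at 155 CPM in donor and 198 CPM in recipient cells, and Irf7 at 206 CPM in donor and 222 CPM in recipient cells. Of the 25 named genes, some outside the list did differ. Apol9b (2.03-fold, 1.16 to 3.89), Slfn2 (2.02-fold, 1.27 to 3.41) and Mndal (3.53-fold, 2.18 to 6.11) were counted as higher in the donor library. Ddx60 was counted as lower (0.494-fold, 0.289 to 0.888). Sort gate, donor origin, strain and library cannot be told apart in this comparison.

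**Figure D5:**
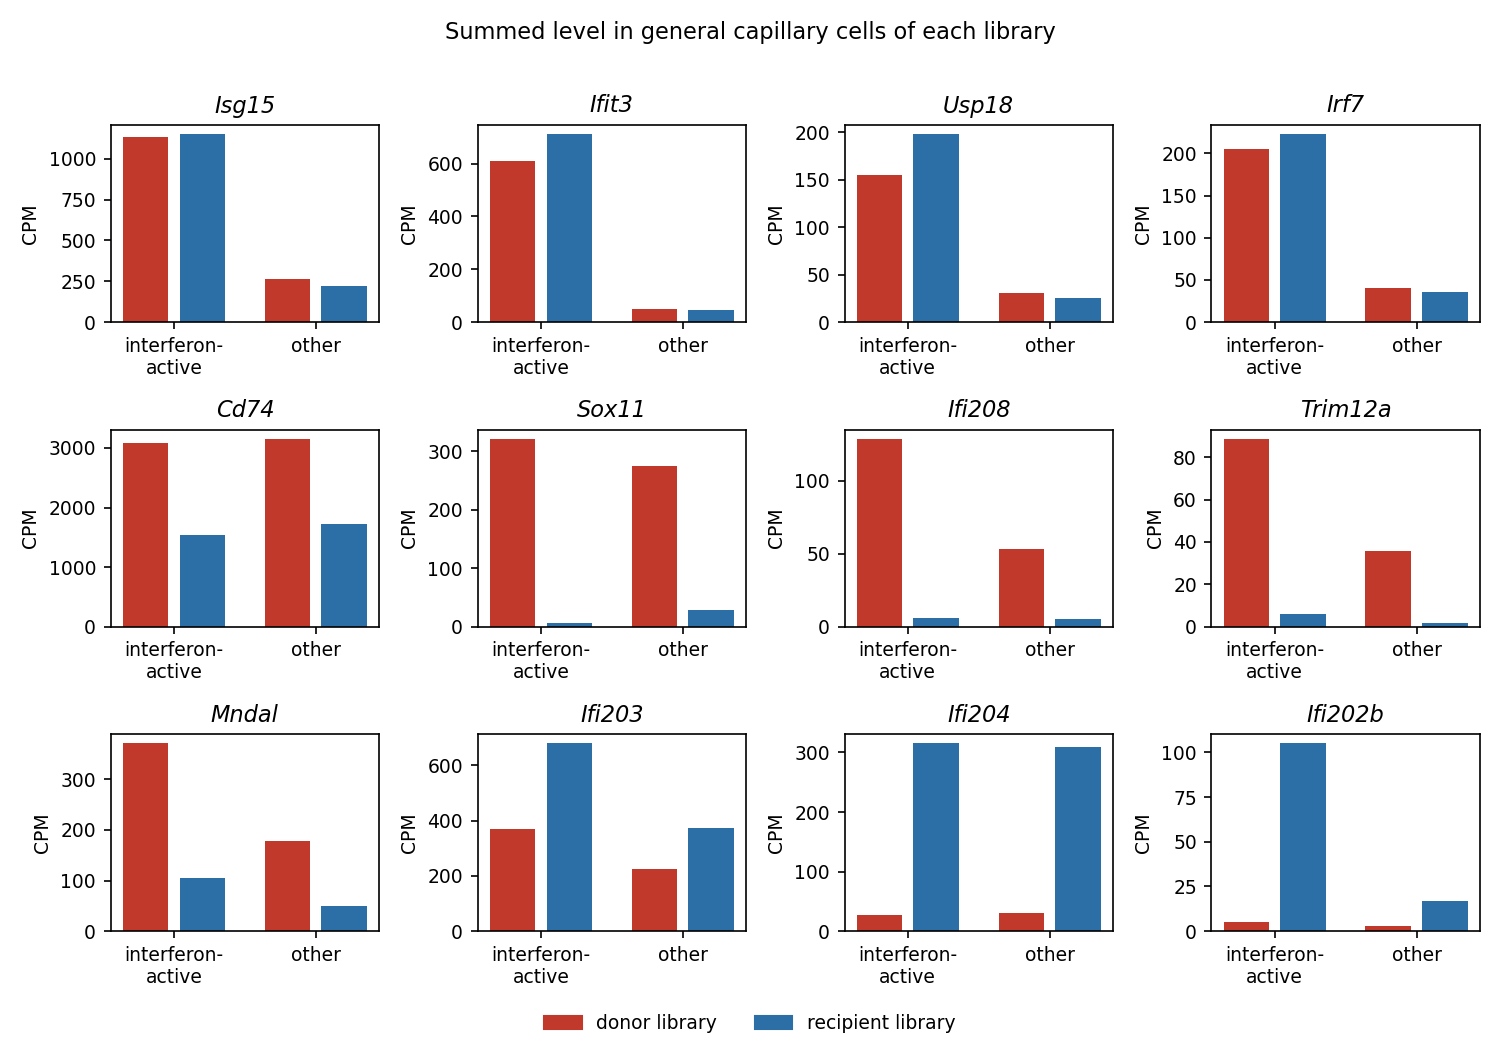
Summed level (CPM) of 12 genes in interferon-active and other general capillary cells of the donor (red, left bar of each pair) and recipient (blue) libraries. Usp18 and Irf7 differ more by cell group than by library, Isg15 and Ifit3 are shown as genes that chose the cells, Cd74 differs by library and hardly by cell group, Sox11 differs by library, and the PYHIN genes Ifi208, Mndal, Ifi204 and Ifi202b differ by library.

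The PYHIN genes, a cluster on chromosome 1 whose proteins sense or bind DNA, differed between the libraries in both directions. Ifi204 stood at 26.6 CPM in interferon-active donor cells and 315 CPM in interferon-active recipient cells (11.8-fold lower in the donor library, 7.40 to 19.3), and at 30.4 CPM in other donor and 309 CPM in other recipient cells, so its level followed the library and not the cell group. Ifi202b stood at 5.32 CPM in donor and 105 CPM in recipient interferon-active cells, and at 2.67 CPM in donor and 17.0 CPM in recipient other cells. Ifi208 went the other way, with 145 UMIs (129 CPM) in donor and 1 UMI in recipient interferon-active cells (20.8-fold, 3.68 to 827), and 53.4 CPM in donor and 5.10 CPM in recipient other cells. Ifi206 and Ifi213 had 98 and 86 UMIs in interferon-active donor cells and 0 in recipient cells, which with a floor of 3 counts over the recipient group is at least 4.69-fold and at least 4.11-fold higher in the donor library. The exact counting intervals reach down to 3.74-fold for Ifi206 and 3.27-fold for Ifi213. Within the donor library Ifi206 stood at 86.9 CPM in interferon-active and 21.7 CPM in other cells, Ifi213 at 76.3 CPM in interferon-active and 24.7 CPM in other cells, and both were counted as higher, as was Ifi208. Mndal stood at 371 CPM in interferon-active against 178 CPM in other donor cells and 105 CPM in interferon-active against 49.9 CPM in other recipient cells, 2.08-fold apart in donor and 2.11-fold in recipient cells. Genes of this cluster are close copies of each other, so their separate counts are uncertain.

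MHC class II genes were higher in donor interferon-active cells. Over 7 genes the median log2 ratio of donor over recipient was 1.01, with 3 counted as higher, beside 2.3% of all genes. In other general capillary cells the median was 0.62, and 0 of the 7 were counted as higher, beside 2.14% of all genes. Cd74 stood at 3086 CPM in donor and 1545 CPM in recipient interferon-active cells, and at 3152 CPM in donor and 1728 CPM in recipient other cells. The summed class II level per interferon-active cell ran over 0 to 22141 CPM with a median of 5333 in the donor library, and over 0 to 16501 CPM with a median of 1266 in recipient cells, so the ranges overlapped.

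Of the genes named by rule as higher in donor interferon-active cells, Car4, the aerocyte carbonic anhydrase, had 369 UMIs (327 CPM) in donor and 1 UMI in recipient cells (52.9-fold, 9.44 to 2097). Sox11, a developmental transcription factor, had 362 UMIs (321 CPM) in donor and 1 UMI in recipient cells (51.9-fold, 9.26 to 2057). In other general capillary cells Car4 stood at 284 CPM in donor and 107 CPM in recipient cells, and Sox11 at 274 CPM in donor and 28.9 CPM in recipient cells. Cd24a, Casc4, Ifi208, Trim12a and Ltbp4 also had 1 UMI in the recipient cells and 68 to 199 in the donor cells, Pard6g and Prx had 2, and Alas1 had 4. Trim12a, a relative of the restriction factor TRIM5, stood at 35.7 CPM in donor and 1.70 CPM in recipient other cells. Ltbp4 stood at 66.1 CPM in donor and 58.4 CPM in recipient other cells, and Pard6g at 89.7 CPM in donor and 86.7 CPM in recipient other cells. Besides Ifi202b and Ifi204, those lower in donor cells were Mgp, an inhibitor of calcification, at 23.1 CPM in donor and 136 CPM in recipient cells, Fabp5, a fatty acid carrier, at 39.9 CPM in donor and 155 CPM in recipient cells, and Pde4d, Inpp5f, Asna1, Lsm2, Rapgef6 and Nfkb2, which were 2.82-fold to 4.40-fold lower on 10 to 17 recipient UMIs. Fabp5 turned direction under another choice of depth, with a counting interval that spanned 1-fold. The log2 ratios of Ltbp4, Pard6g, Prx and Trim12a turned negative under at least 1 other choice of cells or depth. This was only where recipient cells had no UMI of the gene and the floor of 3 counts stood in. These values are given with the alternatives. In other general capillary cells 2.14% of genes were counted as higher and 4.85% as lower in the donor library.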

How the data were processed

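Droplet single-cell RNA-seq of sorted mouse lung cells gave 1 matrix a library. The authors deposited unnormalised UMI counts of 32285 genes in each cell, made with Cell Ranger on mm10. The version is 4.0.0 per the file headers and the submitters' processing notes, whereas the labels' protocol names 3.0.1. The labels' protocol also names Seurat 3.1.1 and monocle3 0.2.0, whose output was not used here. Cells were filtered anew: at least 1000 UMIs, under 7% mitochondrial UMIs, and of a barcode in both libraries the copy with more UMIs.

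UMIs were summed over the cells of a group and scaled to CPM. Ratios of 2 groups carry exact conditional binomial intervals, shares Clopper-Pearson intervals and levels exact Poisson intervals, all at 95% and for counting error only. A gene needed 20 UMIs over both groups to be measured, and was counted as higher or lower at 2-fold or more with an interval that left out 1-fold. Zero counts were read against a floor of 3 counts over the group. Thinning drew 3000 UMIs a cell without replacement. Ednrb-high cells had at least 3 UMIs of Ednrb and at most 2 of Plvap.

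Genes named as higher or lower in interferon-active cells were counted so in the donor library, ran the same way at 2-fold or more with at least 5 UMIs in recipient cells, reached 50 CPM in the higher donor group and had at most 20% of that group's UMIs in 1 cell, up to 25 higher and 10 lower. The naming passed over the genes of the rule, gene models without a proper symbol and mitochondrial, ribosomal protein, haemoglobin and sex-linked genes. Genes named between libraries needed an interval beyond 1.5-fold and the same limit on 1 cell, up to 10 each way. List members named besides these were picked after their values were seen. The members and the 25 gene lists were chosen with earlier results of these data known. Doublets were kept, since the Scrublet threshold marked 2 donor barcodes (0.0317%) and had not worked there, and 135 recipient barcodes (3.57%). The ratios, intervals and calls were run on simulated Poisson counts, which follow the model that the intervals assume. These counts had no spread between cells, so the run cannot show how the calls hold under such spread. Promoters are the 250 bases before RefSeq starts (GRCm38.p6). Python 3.11.15, numpy 2.4.6, scipy 1.17.1, pandas 2.3.3 and scanpy 1.11.5 were used.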

Additional observations from a re-analysis of the deposited data

Results flagged for a closer look

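Of 243 list members and named genes set side by side, 8 stood on opposite sides of other general capillary cells in the donor and recipient libraries, each with a counting interval that left out 1-fold; the difference between the libraries was not tested. Car4 had a log2 ratio of interferon-active over other cells of 0.20 in donor and −4.11 in recipient cells, and Alas1, the first enzyme of haem synthesis, of 0.25 and −1.92. Esm1 had −1.30 in donor and 0.75 in recipient cells, where 1 cell held 23 of the 27 UMIs. The immediate early gene Ier2 had −0.093 and 0.16. Mgp had 1.06 in donor and −1.18 in recipient cells, with 46.2% of its donor UMIs in 1 cell. Markers of other cell types made up the rest: Lyz2 of myeloid cells had −2.47 and 2.09, Pdgfrb of pericytes 0.997 and −3.08, and Sftpc of alveolar type 2 cells −2.90 and 2.32. For Lyz2 and for Sftpc, 1 of the interferon-active recipient cells held over 20% of the gene's UMIs in that group.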

How the results depend on the processing

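Other choices were tried for the marker rule, cell filters, shared barcodes, doublets, depth, weighting of cells, gene filters and the comparison group, over 16 alternatives. Leaving out cells with 10 or more Ager UMIs was chosen after seeing the data. Of 128 values that answer a comparison, 113 stayed within the counting interval, or within 1.5 times for a count of genes. All 300 donor and 300 recipient values of the 25 named higher genes under the alternatives that bear on them lay above 0, at 0.61 to 2.48 in donor and 0.02 to 3.88 in recipient cells on the log2 scale. These genes were named for ratios of 2-fold or more in both libraries of the same data. Their direction was therefore largely set in advance, and the values show only how far the ratios moved.

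The share of interferon-active cells follows the rule: it was 16.3% in donor and 13.8% in recipient cells with 3 of 5 markers, 2.18% and 1.89% with 5 of 5, 3.99% and 2.20% with Ifit1, Rsad2 and Isg15 all detected, and 3.75% and 3.81% with whole profiles thinned to 3000 UMIs. Recipient genes counted as lower numbered 124 as reported, 38 with 5 of 5 markers, 47 with the 3 genes and 23 thinned. Recipient genes counted as higher numbered 218 as reported, 127 thinned, 53 with at least 100 UMIs a gene and 341 with at least 1 UMI in each group, and donor ones 169 as reported and 79 with at least 100 UMIs.

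Some values turned direction, and others turned negative only through the floor for zero counts. The donor over recipient log2 ratio of Ltbp4 was −0.62 with 5 of 5 markers, −0.065 with the 3 genes and −1.57 thinned. With 5 of 5 markers Pard6g was −0.15 and Prx −0.47, and with the 3 genes Trim12a was −0.031. In each of these cases recipient cells had no UMI of the gene and the floor of 3 counts stood in, so no turn was observed. Fabp5 was −1.95 as reported and 0.38 (−2.47 to 5.84) thinned. The donor median of red cell and platelet genes was 1.17 as reported. It was −1.19 with 5 of 5 markers, −1.22 with mitochondrial shares under 5% and −0.80 without the highest doublet scores. The donor median of mesenchymal genes was 0.997 as reported, −0.81 without those scores and −0.64 without cells above 20000 UMIs. The recipient median of epithelial genes was 1.80 as reported, −0.060 with 5 of 5 markers and −0.072 with the 3 genes. The donor over recipient median of PYHIN genes was 0.58 as reported and −2.32 with at least 1 UMI in each group, where genes at 0 in a library drop out. Under these alternatives the counting intervals of Fabp5 and of the platelet, mesenchymal and epithelial medians (median limits over the genes) all spanned 0. The cause was not tested for Fabp5 or for those medians. No paired analysis was possible because each group was 1 library. Recipient values rest on 24 interferon-active cells, against 165 in the donor library.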
